A study of Mus musculus with 12 samples.

Results

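The wells described here held 231 single blood progenitors, out of 1923 comparable wells, with the highest summed level of 5 genes of lymphoid priming. The 5 genes were Flt3, Satb1, Il12a, Dntt and Notch1. A well had to hold at least 3000 unique molecular identifiers (UMIs, each standing for 1 captured mRNA molecule) outside the ERCC spike-in RNAs, which left 2811 of 4608 wells. Wells with a UMI of Mpeg1, H2-Aa, Klf1 or Cd79a, which mark macrophages, antigen-presenting cells, red cell precursors and B cells, were then set aside, and these were 888 wells. For each of the remaining 1923 wells the score was the mean over the 5 genes of log2(1 + UMIs per 10000 UMIs). The top 12% of wells over all plates, 231 wells, are called lymphoid-primed wells below, and the 1692 wells under that line are called the other wells.

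The cells were LSK cells (lineage-negative, Sca-1-positive, Kit-positive), sorted one per well from C57BL/6J fetal liver (embryonic day 18.5) and sequenced by SORT-seq, which counts the 3' ends of mRNAs. The 12 plates carried 4 genotypes: 4 plates of the double mutant (Pcna K164R/K164R;Rev1-/-), 3 of the Rev1 knockout (Rev1-/-), 2 of Pcna K164R/K164R and 3 of wild type (WT). Rev1 is a DNA polymerase of translesion synthesis, and the mutated lysine of Pcna, the sliding clamp of replication, is the residue whose ubiquitination recruits such polymerases. The labels give 3 sort dates, called sessions here: session 1 gave double mutant replicates 1 and 2, both Pcna K164R plates and WT replicate 1, session 2 gave double mutant replicate 3 and Rev1 knockout replicate 1, and the rest were from session 3. The labels name no treatment, nothing in them ties a plate to an animal, and replicate numbers follow the order of deposit, so p-values measure the spread between plates, which may be technical.

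In mouse blood formation the LSK fraction contains stem cells and multipotent progenitors. Progenitors that gain the receptor tyrosine kinase Flt3 lose much of their capacity to form megakaryocytes and red cells, and start to transcribe genes of the lymphoid lineages at a low level before any lymphoid fate is fixed. Satb1 organises chromatin and favours lymphoid fate, Notch1 is the receptor that drives T-cell commitment, Il12a encodes a subunit of interleukin 12, and Dntt encodes the polymerase that adds bases at V(D)J junctions and is known to be scarce in mouse lymphocytes before birth.

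Promoters of 3 genes outside the score are shown as examples of the leading higher and lower genes described below. Ccr9, the receptor for the thymic chemokine Ccl25, led the genes that were higher in lymphoid-primed wells, Plac8, a small cysteine-rich protein of progenitors, was among the 12 leading higher genes, and Cpa3, the carboxypeptidase of mast cell granules, was among the leading lower ones. The sequences are RefSeq's for GRCm38.p6, from 250 bases before to 50 bases after the annotated start, written 5′ to 3′ on the gene's strand. They are Ccr9 at chr9:123766961-123767260 (plus strand), the upstream one of 2 Plac8 starts at chr5:100572156-100572455 (minus strand) and Cpa3 at chr3:20242132-20242431 (minus strand). Capitals mark matches to 4 hexamers or to their reverse complements. The hexamers were CAGGTG for an E-box, TGTGGT for a RUNX motif, TGGGAA for an Ikaros motif and AGATAA for a GATA motif.
Ccr9: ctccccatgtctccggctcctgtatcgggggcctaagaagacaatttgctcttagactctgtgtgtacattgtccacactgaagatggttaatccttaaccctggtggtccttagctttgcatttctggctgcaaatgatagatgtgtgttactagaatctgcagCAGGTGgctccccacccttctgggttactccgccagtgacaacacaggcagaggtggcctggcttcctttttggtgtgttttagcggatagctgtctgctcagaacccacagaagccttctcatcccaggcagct
Plac8: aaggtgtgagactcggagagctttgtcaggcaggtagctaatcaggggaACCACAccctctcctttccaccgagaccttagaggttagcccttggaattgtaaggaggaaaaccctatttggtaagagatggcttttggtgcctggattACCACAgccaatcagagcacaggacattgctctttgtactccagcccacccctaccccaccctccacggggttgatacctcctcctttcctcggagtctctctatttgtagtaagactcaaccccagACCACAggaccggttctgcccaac
Cpa3: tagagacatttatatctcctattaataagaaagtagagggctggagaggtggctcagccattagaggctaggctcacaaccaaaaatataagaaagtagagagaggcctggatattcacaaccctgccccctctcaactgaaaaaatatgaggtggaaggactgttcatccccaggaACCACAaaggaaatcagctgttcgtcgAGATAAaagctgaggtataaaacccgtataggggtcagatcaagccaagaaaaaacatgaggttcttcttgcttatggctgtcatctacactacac
The Ccr9 window held 1 E-box, 85 bases before the start. The Plac8 window held 3 RUNX matches, and the Cpa3 window held 1 RUNX and 1 GATA match. No overlap between different motifs was marked in these 3 windows. The window of the other Plac8 start, which is not shown, held 1 Ikaros match and no RUNX match. Of 32851 RefSeq mouse promoter windows of this length, 20.2% held the E-box hexamer, 16.8% the RUNX hexamer, 25.6% the Ikaros hexamer and 11.2% the GATA hexamer. Counted per gene over 27025 genes, whose starts may be several, the shares were 22.6, 18.9, 28.3 and 12.7%. Among the 10 of the 12 leading higher genes with a promoter window, 3 held the E-box, 3 RUNX, 2 Ikaros and 2 GATA. Among the 9 of the 12 leading lower genes with one, the numbers were 1, 3, 3 and 2. These matches describe the letters of the windows, and no binding was measured.

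The score set the 231 wells apart by degree. Scores ran from 1.32 to 2.89 in lymphoid-primed wells with a median of 1.60, while the other wells had a median of 0.59. The lowest lymphoid-primed well scored 1.3239 and the highest other well 1.3234, and 52 lymphoid-primed wells and 74 other wells lay within 0.1 of that line. Just inside it was a well of WT replicate 3 with 1 Flt3, 1 Satb1, 0 Il12a and 9 Notch1 UMIs, followed by a well of WT replicate 1 with 10 Flt3, 5 Satb1, 0 Il12a and 9 Notch1 UMIs, and just outside was a well of WT replicate 2 with 7 Flt3, 8 Satb1, 2 Il12a and 2 Notch1 UMIs. The line thus fell within a continuous range of scores. A line at a fixed share of wells cannot show whether these wells form a separate group. When every well was thinned to 3000 UMIs and the score recomputed, 136 of the 231 wells (58.9%) were chosen again, and 194 (84.0%) were when Flt3 was left out of the score.

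The levels of the score genes chose the wells and are given as a description only. Flt3 had at least 1 UMI in 99.1% of lymphoid-primed wells and in 74.6% of other wells, Satb1 in 98.7% and 66.4%, Notch1 in 92.6% and 61.4%, and Il12a in 81.0% and 29.0%. Dntt barely entered the score, with 3 UMIs in 3 lymphoid-primed wells and 1 UMI in 1 other well. Flt3, Satb1, Il12a and Notch1 were found together in 168 lymphoid-primed wells (72.7%) and in 269 other wells (15.9%). Thinned to 3000 UMIs per well, Il12a remained in 39.4% of lymphoid-primed wells and 6.97% of other wells. In counts summed per plate, over the 9 plates that held at least 5 lymphoid-primed wells, Flt3 had 446 CPM (counts scaled to a common library size with edgeR's TMM factors) at the lowest plate, 546 at the median and 678 at the highest in lymphoid-primed wells, against 97.4, 189 and 262 CPM in other wells. Il12a had 54.2, 173 and 360 CPM in lymphoid-primed wells, against 9.94, 20.7 and 49.9 CPM in other wells.

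Whether the 5 genes rise in the same wells was tested by leaving each gene out in turn, choosing 231 wells with the other score genes, and comparing the left-out gene on the 9 plates. The score genes were chosen with earlier results of these data known, so the p-values below give no independent support for the set. Left-out Il12a had 34.1 CPM at the lowest plate, 136 at the median and 286 at the highest in wells chosen without it, against 9.78, 25.1 and 73.4 CPM in the remaining wells. Its log2 ratio, with 1 CPM added, averaged 2.05 ± 0.492 (SD, n = 9 plates) and was positive on 9 of 9 plates. The other left-out genes were Notch1 with a mean of 1.55 ± 0.407, Satb1 with 1.40 ± 0.383 and Flt3 with 1.20 ± 0.340, each positive on 9 of 9 plates. For each of these 4 genes the exact two-sided sign-flip permutation test gave p = 0.00391, the smallest that 9 plates allow, and 0.00488 after Benjamini-Hochberg adjustment over 5 genes. Left-out Dntt gave 0.62 ± 0.975, with 3 UMIs against 0 and an exact permutation p of 0.25, so it could not be judged at this depth.

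The sort markers of LSK cells were present in both sets of wells. Kit was detected in 95.7% of lymphoid-primed wells and 96.0% of other wells, and Ly6a, which encodes Sca-1, in 50.2% and 54.7%. The neutrophil marker S100a8 was detected in 6.49% of lymphoid-primed wells, against 6.97% of other wells.

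Lymphoid-primed wells were found on 10 of 12 plates and were scarce on double mutant plates. Double mutant replicates 1 to 4 held 8 of 161, 1 of 123, 0 of 10 and 0 of 36 comparable wells. Rev1 knockout replicates 1 to 3 held 34 of 288, 15 of 151 and 24 of 141, Pcna K164R replicates 1 and 2 held 23 of 231 and 32 of 208, and WT replicates 1 to 3 held 27 of 214, 46 of 229 and 21 of 131. As shares, the double mutant plates averaged 1.45 ± 2.38% (SD, n = 4), the Rev1 knockout plates 12.9 ± 3.67% (n = 3), the Pcna K164R plates 12.7 ± 3.84% (n = 2) and the WT plates 16.2 ± 3.74% (n = 3). All 4 double mutant plates lay below all 8 plates of the other genotypes, whose lowest share was 9.93%. The same order held within session 1 and within session 3, where both double mutant and WT plates were sorted. The session 3 double mutant plate was replicate 4 alone, whose Rev1 level was within the WT range (given below). A flow cell is also recorded for each plate, and in neither session did a double mutant plate share one with a WT plate. The median score over all comparable wells was also lower on double mutant plates, with 0.323, 0.344, 0 and 0.380 on replicates 1 to 4. On the 8 plates of the other genotypes it was 0.678 to 0.819. Whether the shares differ beyond this lower score of all wells was not tested.

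The highest double mutant share was 4.97%, with an exact 95% binomial interval of 2.17 to 9.56%, and the highest WT share was 20.1%, with an interval of 15.1 to 25.9%. The count of 0 on double mutant replicates 3 and 4 allows shares of up to 30.0% and 8.33% (3 counts of the total), so replicate 3 says little. These bounds cover counting error only. The shares are not tested, since the score genes themselves entered the choice. Beside them stands the share of wells set aside for Mpeg1, H2-Aa, Klf1 or Cd79a, which was 41.2 to 56.6% on double mutant plates and 8.86 to 42.3% on the 8 plates of the other genotypes. It was above all 8 on 3 of the 4 double mutant plates, and its part in the difference was not tested.

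**Figure D1:**
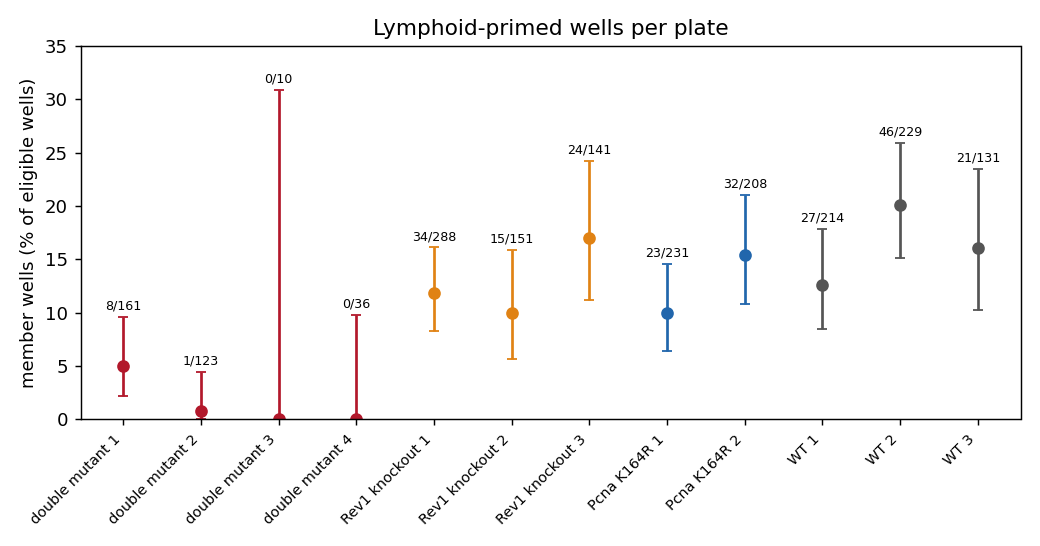
Share of comparable wells that were lymphoid-primed (y axis, percent) on each of the 12 plates, with plates grouped by genotype on the x axis and bars for exact 95% binomial intervals. The double mutant plates lie between 0 and 4.97%, below the WT plates at 12.6 to 20.1%.

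Rev1 itself was sparse. Over all comparable wells it had 1.64, 2.74, 0 and 16.7 unscaled CPM (UMIs over the summed UMIs of those wells, without TMM factors) on double mutant replicates 1 to 4, against 5.96, 1.34 and 4.44 unscaled CPM in Rev1 knockout replicates 1 to 3, 10.6 and 9.38 unscaled CPM in Pcna K164R replicates and 10.8, 22.7 and 12.9 unscaled CPM in WT replicates. The library labelled double mutant replicate 4 thus had a Rev1 level within the WT range, from 12 UMIs, and it contributed no lymphoid-primed well. Whether its label is wrong was not tested. The 0 of replicate 3 came from wells with 65124 UMIs in total. The labels do not say which part of Rev1 is deleted, so a 3' count may not check the knockout, and the Pcna change is a point mutation that counts cannot check. On the 9 plates used for gene tests, lymphoid-primed wells summed to 220143 to 608599 UMIs per plate and other wells to 1457436 to 4759781 UMIs. Median UMIs per well were 6110 to 26316.5 in lymphoid-primed wells and 8864 to 28097 in other wells, higher in lymphoid-primed wells on 3 of 9 plates. Median mitochondrial shares were 7.50 to 11.4% in lymphoid-primed wells and 7.26 to 10.3% in other wells.

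Genes outside the score were compared between lymphoid-primed and other wells of the same plates with edgeR's quasi-likelihood test on UMIs summed per plate, with the plate as a block. Of 8690 genes tested, 1164 (13.4%) passed an adjusted p of 0.05, 686 higher (7.89%) and 478 lower (5.5%) in lymphoid-primed wells. Ccr9 had 51.1 CPM at the lowest plate, 149 at the median and 254 at the highest in lymphoid-primed wells, against 6.66, 9.51 and 24.7 CPM in other wells. The plates did not overlap, and the log2 fold change was 3.86 (SE 0.168, adjusted p = 6.24e-22), the largest among the 12 leading higher genes. Within session 1 the log2 fold change was 3.72 and within session 3 it was 3.75. Behind it were 564 UMIs in lymphoid-primed wells and 349 UMIs in other wells. These genes were not part of the score but were read in the same wells, and the count depended on depth: 126 genes passed with the same wells thinned to 3000 UMIs and 90 with wells thinned and chosen again, against 835 with other wells matched to each lymphoid-primed well by depth. Of the 24 leading genes, 19 were still abundant enough to test with the same wells thinned, and all 19 kept their direction and call, but Ccr9, Col4a1, Cpa3, Ctsg and Hdc fell below the filter. With wells thinned and chosen again 18 of the 19 tested kept them, Ccr9 included and Mn1 excepted, and with depth-matched other wells 22 of the 22 tested did.

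H2afy (Macroh2a1 in RefSeq), the histone variant macroH2A1, had 2664, 2850 and 3426 CPM at the lowest, median and highest plate in lymphoid-primed wells, against 1489, 1666 and 1822 CPM in other wells (log2 fold change 0.81, SE 0.0391, adjusted p = 2.72e-20). It was present in every lymphoid-primed well. Ncf1, a cytosolic subunit of the NADPH oxidase, had 117, 167 and 259 CPM in lymphoid-primed wells and 36.9, 60.1 and 81.5 CPM in other wells, again with no overlap (log2 fold change 1.63, adjusted p = 1.59e-17). Plac8 had 399, 652 and 955 CPM in lymphoid-primed wells and 157, 302 and 566 CPM in other wells. For Plac8 the ranges overlapped between plates but each of the 9 plates was higher (log2 fold change 0.97, adjusted p = 3.62e-13). The remaining 8 of the 12 leading higher genes were Tcf4, an E protein, with a log2 fold change of 0.94, the transcription cofactor Mn1 with 1.67, the tetraspanin Cd53 with 0.90, the adhesion protein Emb with 0.77, Tmem173, the DNA-sensing adaptor STING, with 1.01, the adhesion receptor Gpr97 with 1.08, Rabgap1l with 1.05 and the lymphocyte adaptor Lax1 with 1.18. Each was higher on 9 of 9 plates.

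Among the leading lower genes, 2 kinds of pattern were seen. Grb10, an imprinted adaptor of growth factor receptors, had 6.05, 21.5 and 53.9 CPM at the lowest, median and highest plate in lymphoid-primed wells, against 80.6, 122 and 249 CPM in other wells (log2 fold change -2.57, adjusted p = 1.64e-17). It was detected in 19.5% of lymphoid-primed wells and 63.4% of other wells, so it was low in most lymphoid-primed wells. Mecom, a transcription factor of stem cell self-renewal, had 4.90, 28.6 and 53.6 CPM in lymphoid-primed wells and 61.8, 96.4 and 173 CPM in other wells (log2 fold change -1.81, adjusted p = 6.77e-14). The cytokine feedback inhibitor Socs2 (log2 fold change -1.81), Serpina3g (-1.96), the interferon-induced membrane protein Ifitm1 (-0.72), Cd63 (-1.53), Rab38 (-2.01) and the collagen Col4a1 (-2.30) were lower on 9 of 9 plates.

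The mast cell and granule genes differed in another way. Cpa3 had 0, 4.90 and 48.7 CPM at the lowest, median and highest plate in lymphoid-primed wells, against 4.08, 251 and 585 CPM in other wells (log2 fold change -4.11, SE 0.172, adjusted p = 2.29e-22). Yet it was detected in similar shares of wells, 16.5% of lymphoid-primed wells and 19.8% of other wells, or 5.19% and 5.32% after thinning. The 50 highest of the 1692 other wells gave 96.6% of their Cpa3 UMIs. The same held for the tryptase Tpsb2 (log2 fold change -3.98, adjusted p = 8.01e-23, 95.8% of UMIs in the 50 highest other wells), for Hdc, which makes histamine (-4.37, 96.2%), and for the neutrophil protease Ctsg (-3.20, 93.2%, higher in lymphoid-primed wells on 1 plate). A small number of other wells thus carried these differences. In lymphoid-primed wells the mast cell and basophil list summed to 159 to 336 unscaled CPM with a median of 191, against 218 to 3049 with a median of 1244 in other wells, and Gzmb, Mcpt8 and Ms4a2 were at 0.

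**Figure D2:**
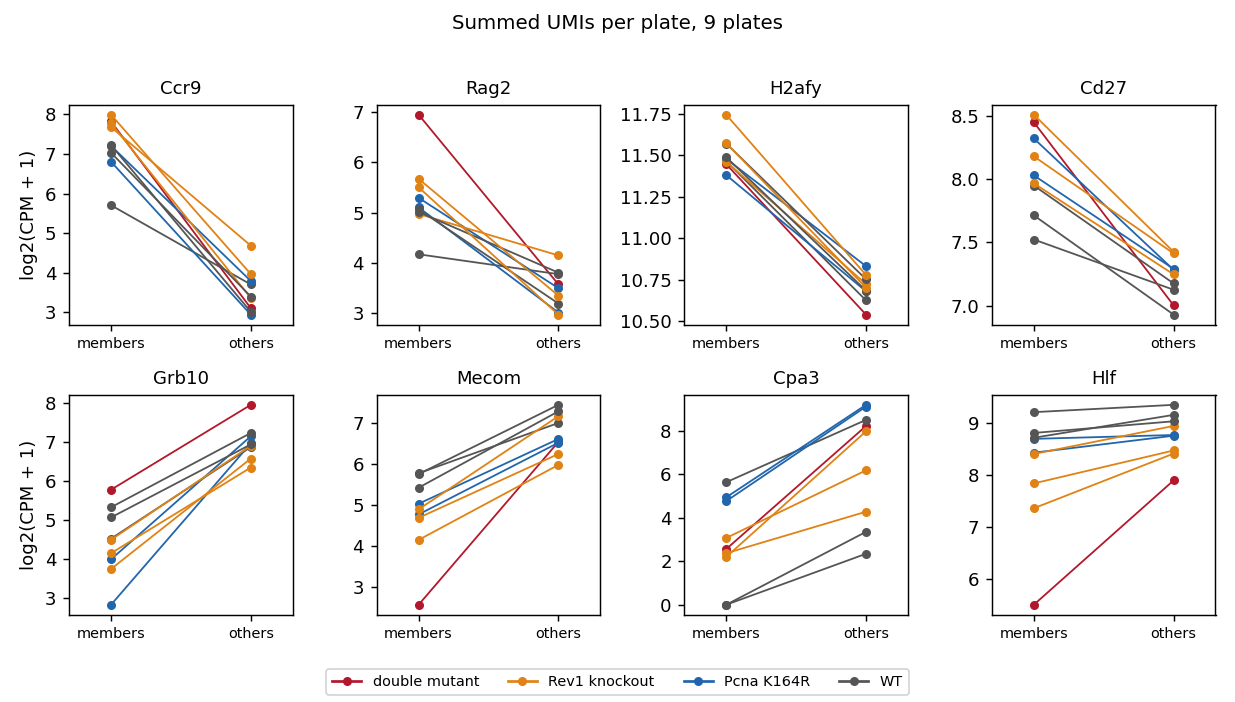
Log2(CPM + 1) from TMM-scaled counts (y axes) of 8 genes in lymphoid-primed wells (members) and in other wells (others), with a line joining the values of each of the 9 plates, coloured by genotype. Ccr9 lies at 51.1 to 254 CPM in lymphoid-primed wells, above the 6.66 to 24.7 CPM of other wells on each plate, and Mecom and Grb10 lie below.

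Lists of lineage genes are described by their counts and medians, beside a median log2 fold change of 0.01 over all 8690 genes. Of 19 tested lymphoid transcription factors, 11 were higher and 2 were lower in lymphoid-primed wells, with a median of 0.40. Ikzf1, which encodes Ikaros, had 287, 347 and 417 CPM at the lowest, median and highest plate, against 188, 206 and 255 CPM in other wells (log2 fold change 0.77, adjusted p = 5.39e-11). Bcl11a (0.58), needed for early lymphoid progenitors, and Ets1 (1.45) were also higher, while Id3 (-0.84), an inhibitor of E proteins, and Ikzf2 (-0.67) were lower. Of 25 lymphoid surface and signalling genes, 17 were higher and 1, Prkcb (-1.07), was lower, with a median of 0.39. Besides Ccr9 they included Cd27, a costimulatory receptor, with 183, 260 and 363 CPM in lymphoid-primed wells and 121, 151 and 171 CPM in other wells (log2 fold change 0.87, adjusted p = 2.25e-11).

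Of 9 tested genes of V(D)J recombination, 4 were higher and 0 were lower. Rag2, a subunit of the recombinase, had 17.0, 33.4 and 123 CPM at the lowest, median and highest plate in lymphoid-primed wells, against 6.86, 10.3 and 16.8 CPM in other wells (log2 fold change 1.94, SE 0.238, adjusted p = 3.7e-08). The others were the end-joining factor Xrcc6 (0.53) and the DNA-bending proteins Hmgb1 (0.24) and Hmgb2 (0.23), which many cell types express. Rag1, its partner subunit, was too sparse to test, with 27 UMIs in lymphoid-primed wells and 31 UMIs in other wells, or 7.46 and 0.946 unscaled CPM. Likewise untested were Il7r, the interleukin 7 receptor, with 55 UMIs against 70 (15.2 and 2.14 unscaled CPM), Ccr7 with 55 against 38 (15.2 and 1.16 unscaled CPM), Arpp21 with 63 against 62 (17.4 and 1.89 unscaled CPM) and Ebf1, a B-cell determinant, with 14 against 4 (3.87 and 0.122 unscaled CPM).

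Some markers of committed lymphocytes were at 0 in lymphoid-primed wells and others were present. Pax5, Cd3e and Ly6d had 0 UMIs in lymphoid-primed wells, but only 2, 1 and 2 UMIs in all other wells, so these zeros say little. Of the untested T and innate lymphoid markers, Klrd1 had 24 UMIs against 11 (6.64 and 0.336 unscaled CPM). Thy1 went the other way, with 5 UMIs against 395 (1.38 and 12.1 unscaled CPM). Of the B-lineage list, 2 genes could be tested and neither passed (median 0.36), Cd79a having been excluded by the rule. One of them, Cd79b, a chain of the B-cell receptor complex, was detected in 42.9% of lymphoid-primed wells and 46.0% of other wells. The B-lineage list summed to 49.6 to 117 unscaled CPM in lymphoid-primed wells and 55.8 to 87.4 in other wells, and the T and innate lymphoid list to 82.4 to 194 and 81.1 to 169. Of 3 tested T and innate lymphoid markers, the signalling adaptor Lat passed (log2 fold change 0.44, adjusted p = 0.041), a call that DESeq2 and depth-matched other wells did not keep, and Gata3 had -0.86 (adjusted p = 0.0668). Of 14 tested Notch pathway genes, 1 was higher, the coactivator Maml3 (0.81, a call lost without either Pcna K164R plate), and 1 was lower, the atypical ligand Dlk1 (-1.34). The Notch receptor Notch2 (0.27, adjusted p = 0.113) and Rbpj (0.15, adjusted p = 0.341), the DNA-binding partner of Notch, did not pass. Hes1, a Notch target, had 44 UMIs against 93 (12.2 and 2.84 unscaled CPM) and was not tested. Nrarp, also untested, went the other way with 20 UMIs against 249 (5.53 and 7.60 unscaled CPM). Without Notch1, the Notch list summed to a median of 720 unscaled CPM in lymphoid-primed wells and 793 in other wells. That sum was higher in lymphoid-primed wells on 2 of 9 plates.

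Most stem cell markers were lower. Of 27 tested, 20 were lower and 1, Hoxa9 (0.75), was higher in lymphoid-primed wells, with a median of -0.72. Summed over the list they made 1749 to 3429 unscaled CPM with a median of 2744 in lymphoid-primed wells, against 3309 to 4796 with a median of 4081 in other wells, and were lower on each of 9 plates. Angpt1, a ligand made by stem cells, had a log2 fold change of -1.28 (adjusted p = 3.88e-12) and the transcription factor Gata2 one of -1.26 (adjusted p = 5.75e-12). Hlf, a factor of stem cell identity, had 44.1, 343 and 589 CPM at the lowest, median and highest plate in lymphoid-primed wells, against 236, 434 and 650 CPM in other wells (log2 fold change -0.46, adjusted p = 2.68e-04), and was still detected in 77.1% of lymphoid-primed wells against 93.7% of other wells. The call on Hlf did not hold in every setting: its log2 fold change was -0.11 (adjusted p = 0.811) with wells thinned and chosen again, -0.047 (adjusted p = 0.804) with wells chosen on thinned counts and compared on full ones, -0.33 (adjusted p = 0.167) within session 1, -0.26 (adjusted p = 0.242) on the WT plates alone and -0.41 (adjusted p = 0.466) without the plate as a block. Slamf1 had 0 UMIs against 277, and Vwf 1 UMI against 299.

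Markers of other blood lineages moved in both directions. Of 12 tested granulocyte-monocyte markers, 3 were higher and 5 were lower (median -0.33). Csf1r, the receptor for macrophage colony-stimulating factor, had 4.90, 34.3 and 71.5 CPM at the lowest, median and highest plate in lymphoid-primed wells, against 4.90, 12.9 and 22.8 CPM in other wells, higher on 8 of 9 plates (log2 fold change 1.53, adjusted p = 1.94e-07). The repressor Gfi1 (-0.85) was lower. The neutrophil elastase Elane also passed as lower (-2.26), although it was detected in 28.1% of lymphoid-primed wells and 27.2% of other wells, and the 50 highest other wells gave 87.4% of their Elane UMIs. It was lower on 6 of 9 plates and higher on 1, and without the plate as a block its call was lost (adjusted p = 0.0554). Mpo, the myeloperoxidase of granulocyte progenitors, had -0.27 (adjusted p = 0.174). Of 5 tested dendritic cell markers, 3 were higher (median 0.58), among them Runx2 (0.58) and Irf8 (0.72). The untested ones were sparse and went both ways. Siglech (3.87 against 0.702 unscaled CPM), Spib, Batf3 and Cd209a were higher. The others were lower, among them H2-Ab1 (5.53 against 7.94 unscaled CPM) and Cd74 (1.94 against 4.55). Of 8 megakaryocyte markers, 1 was higher, the platelet substrate Plek (1.07), and 5 were lower (median -0.44), among them Rab27b (-1.52) and Zfpm1 (-0.51).

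Of 6 tested mast cell and basophil markers, 5 were lower (median -3.42). The erythroid list had 4 tested genes with 1 higher, the transferrin receptor Tfrc (0.70), and a median of 0.21. Its untested genes were sparse and lower except Sphk1, among them Gata1 (6.08 against 15.6 unscaled CPM) and Epor (0.829 against 6.32). The 2 tested endothelial markers, Egfl7 (0.77) and Pecam1 (0.56), were both higher (median 0.67). The untested endothelial ones were sparse and lower except Kdr, among them Cdh5 (0.276 against 1.59 unscaled CPM) and Ptprb (0.276 against 1.34). Neither of the 2 tested macrophage markers (median 0.06) nor the 1 tested hepatocyte marker (0.14) passed, and no neutrophil marker was abundant enough to test. The neutrophil list summed to 1.79 to 70.3 unscaled CPM with a median of 9.09 in lymphoid-primed wells, against 3.15 to 559 with a median of 127 in other wells.

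**Figure D3:**
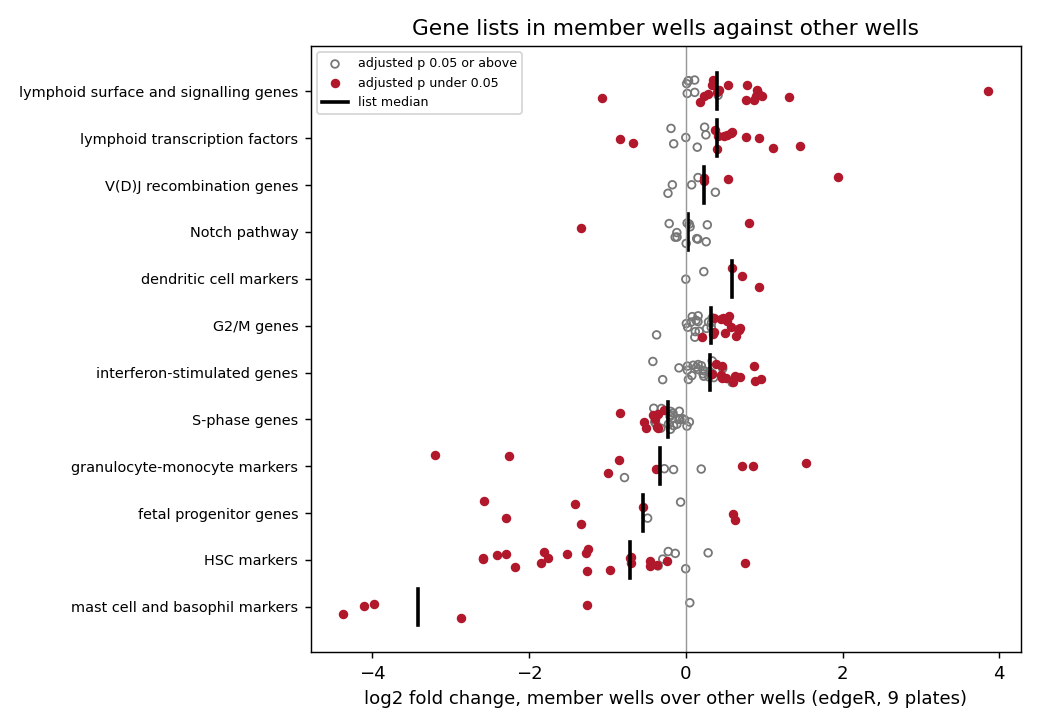
Log2 fold change of the tested genes of each list between lymphoid-primed and other wells (x axis), with each list on its own row, filled points for genes past the adjusted threshold, open points for the others and a vertical bar for the list's median. HSC markers have a median of -0.72, and the lymphoid transcription factors have one of 0.40.

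Cell cycle genes split by phase. Of 30 G2/M genes, 14 were higher and 0 were lower, with a median of 0.33, among them Kif23 (0.68), Nusap1 (0.69), Cenpa (0.63) and Ccnb2 (0.57), all of mitosis. Of 29 S-phase genes, 0 were higher and 9 were lower, with a median of -0.22, among them Fen1 (-0.42), Prim1 (-0.37) and Mcm2 (-0.28). Pcna, the clamp that carries the mutation, had 371, 548 and 683 CPM at the lowest, median and highest plate in lymphoid-primed wells, against 489, 777 and 859 CPM in other wells (log2 fold change -0.35, adjusted p = 5.65e-05). None of the 7 mitotic and S-phase calls named here held with the same wells thinned to 3000 UMIs, and all 7 held with depth-matched other wells.

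Of 18 DNA damage tolerance genes, 1 was higher, Ube2b (0.38), the mouse Rad6 enzyme that ubiquitinates Pcna with Rad18, and 1 was lower, which was Pcna (median -0.01). Of 19 p53 target genes, 4 were higher and 0 were lower (median 0.10): Btg2 (1.61), Xpc (0.76), Sesn1 (0.46) and Trp53inp1 (0.83). Of 35 interferon-stimulated genes, 12 were higher and 0 were lower (median 0.30), among them Rtp4 (0.69), Ifi203 (0.61), Oas2 (0.96) and Irf7 (0.88). Of 9 fetal progenitor genes, 2 were higher, with Hmga2 at 0.63, and 5 were lower, with H19 at -1.42 (median -0.55). The 10 MHC class I genes had 2 higher, Psmb8 (0.24) and B2m (0.13), and a median of 0.15. The call on B2m was not kept by DESeq2 or with depth-matched other wells, and that on Psmb8 was lost without WT replicate 2.

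Lymphoid-primed wells differed among themselves in Ccr9. Of the 231 wells, 88 had a Ccr9 UMI (38.1%, against 9.75% of other wells), and 143 had none. The largest count was 31 UMIs in a well, and 18 lymphoid-primed wells and 5 other wells had at least 10. Rag2 was present in 29 of 88 Ccr9-positive wells (33.0%) and 38 of 143 Ccr9-negative wells (26.6%), Rag1 in 11 (12.5%) and 10 (6.99%), and Il7r in 16 (18.2%) and 10 (6.99%). The Ccr9-positive wells had a median of 13499 UMIs and a median score of 1.75, the Ccr9-negative wells 12081 UMIs and 1.50. Because depth and score move with Ccr9, these shares are a description, and the part of depth was not tested.

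Considering 5 lymphoid genes outside the score together (Ccr9, Il7r, Rag1, Rag2 and Ebf1), 137 lymphoid-primed wells (59.3%) and 437 other wells (25.8%) had at least 1 of them. At least 2 were present in 55 lymphoid-primed wells (23.8%) and 52 other wells (3.07%). By plate, at least 1 of the 5 was found in 75.0% of the 8 lymphoid-primed wells of double mutant replicate 1, in 70.6, 80.0 and 79.2% on the Rev1 knockout plates, in 47.8 and 62.5% on the Pcna K164R plates and in 48.1, 45.7 and 52.4% on the WT plates. The lymphoid-primed wells of these plates had unequal depth, with medians of 13116, 15077 and 12588 UMIs on the Rev1 knockout plates, against 15651, 6110 and 10190 UMIs on the WT plates. Other wells had at least 1 of the 5 genes in 28.3, 33.1 and 27.4% on the Rev1 knockout plates, against 28.3, 19.1 and 21.8% on the WT plates. The part of depth in these shares was not tested.

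The comparable wells of each plate were also split into 5 equal bins by score. In medians over plates, Ccr9 and Rag2 were higher in the upper bins only, while Mecom and Grb10 were lower in every successive bin. Single plates departed from this order, such as WT replicate 3, where Mecom had 168 unscaled CPM in the lowest bin and 256 in the next. As medians over 9 plates from the lowest to the highest bin, Ccr9 had 6.21, 5.45, 5.76, 15.1 and 107 unscaled CPM, and Rag2 had 6.09, 6.43, 7.17, 14.2 and 28.6. Ikzf1 was higher in each successive bin, with 147, 189, 217, 237 and 306 unscaled CPM. Mecom had 168, 114, 90.5, 82.0 and 35.3, and Grb10 had 221, 150, 105, 75.7 and 28.9. Hlf had 444, 439, 480 and 502 over the lower 4 bins and was 377 in the highest. The highest bin held 230 lymphoid-primed wells among its 351 wells. The bins are a description, since the score chose them.

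**Figure D4:**
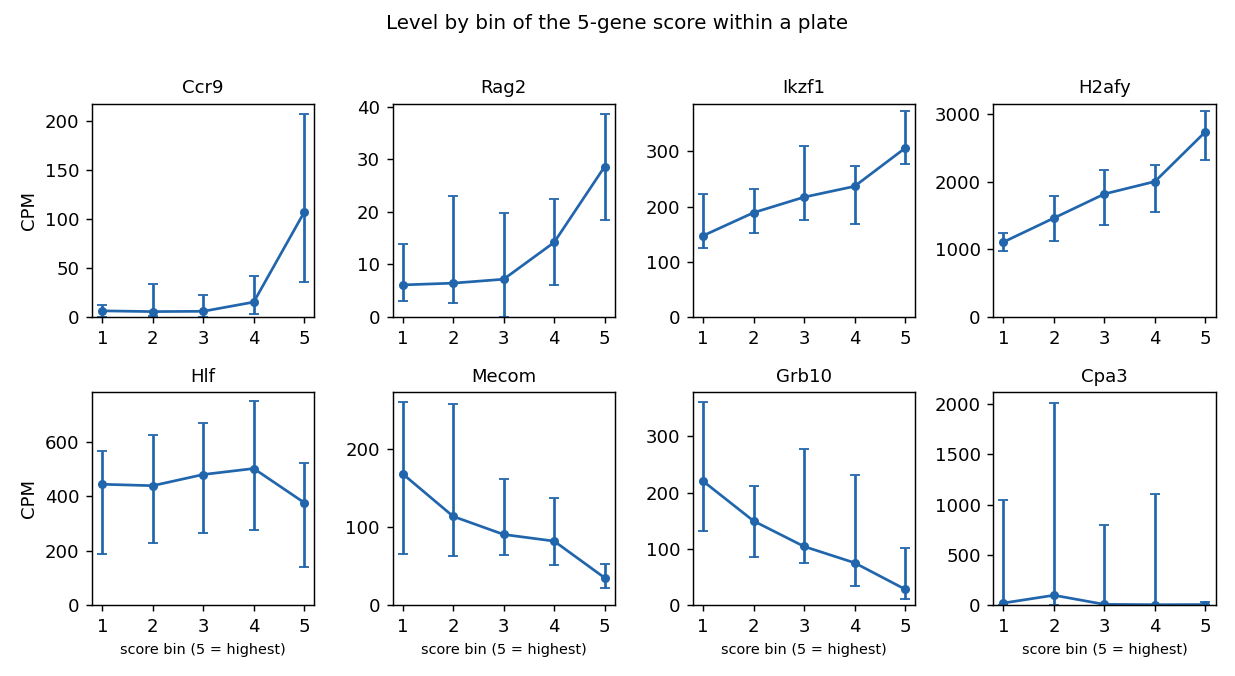
Unscaled CPM (y axes) of 8 genes by bin of the score within each plate (x axis, lowest to highest), with points for the median over 9 plates and bars from the lowest to the highest plate. Ccr9 and Rag2 are at 5.45 to 7.17 in the lower 3 bins and reach medians of 107 and 28.6 in the highest, while Mecom and Grb10 decline.

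Genotypes were then compared within lymphoid-primed wells only. The double mutant entered with 1 plate of 8 wells, which the fit assumes to vary like the plates of the other genotypes, and sort session was a term. With that term the double mutant and Pcna K164R fold changes are taken against WT replicate 1, the only WT plate of session 1, which both comparisons share, while the Rev1 knockout fold changes set replicates 2 and 3 against WT replicates 2 and 3. Values of all WT plates are given beside them. Flow cell was not a term. WT replicate 1 was alone on its flow cell, and double mutant replicate 1 shared one with Pcna K164R replicate 1. Pcna K164R replicate 2 and Rev1 knockout replicates 2 and 3 shared one with WT replicates 2 and 3. With the session term, genotype and flow cell cannot be told apart in the double mutant and Pcna K164R comparisons. Between the double mutant and WT, 4 of 8132 genes (0.0492%) passed, 1 higher (0.0123%) and 3 lower (0.0369%). Hlf had 43.7 CPM in the double mutant, against 585, 435 and 412 CPM in WT replicates 1 to 3 (log2 fold change -3.73, SE 0.471, adjusted p = 4.87e-04). The double mutant value rests on 9 UMIs in 5 of 8 wells, whereas 75 of 94 WT wells had an Hlf UMI. Emp1, an epithelial membrane protein, had 146 CPM in the double mutant from 30 UMIs in 6 of 8 wells, against 14.5, 48.3 and 40.0 CPM in WT replicates 1 to 3 (log2 fold change 3.30, SE 0.620, adjusted p = 0.0454).

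The nuclear RNA Malat1 had 204 CPM in the double mutant and 1632, 742 and 704 CPM in WT (log2 fold change -3.00, adjusted p = 0.0387). Gm19757 had 0 UMIs in the double mutant and 145, 83.9 and 92.1 CPM in WT, which is at least 7.90-fold lower (floor of 3 UMIs on the double mutant plate, adjusted p = 0.00388). Ccr9 itself had 224 CPM in the double mutant, against 50.8, 145 and 128 CPM in WT, and did not pass (log2 fold change 2.13, adjusted p = 0.0932), as did not the histone gene Hist1h2bc (3.77, adjusted p = 0.0932). Hist1h2bc had 136 CPM in the double mutant, against 9.67, 81.4 and 136 CPM in WT replicates 1 to 3, so its fold change rests on WT replicate 1. In other wells of the same plates, Malat1 had 264 CPM in the double mutant and 1594, 1017 and 1106 CPM in WT. Gm19757 had 18.5 CPM in other wells of the double mutant and 112, 101 and 132 CPM in those of WT. Neither difference was confined to lymphoid-primed wells. The cell cycle inhibitor Cdkn1a (1.31, adjusted p = 0.702), Mpo (0.64, adjusted p = 0.655), Rev1 (0.96 from 2 double mutant UMIs, adjusted p = 0.907) and Pcna (0.09, adjusted p = 0.958) did not pass either. Of 24 tested HSC markers, 2 had a log2 fold change above 0 and Hlf alone passed, with a list median of -1.51 against 0.01 over all genes. Without the session term, which brings in all 3 WT plates, Hlf had -3.44 (adjusted p = 0.00273) and Gm19757 also kept its call (adjusted p = 0.0204), while Emp1 had 2.11 (adjusted p = 0.0706) and Malat1 -2.33 (adjusted p = 0.0868) and lost theirs, and Ccr9 had 1.07 (adjusted p = 0.281). The call on Hlf was kept by DESeq2 (adjusted p = 1.09e-04), while those on Emp1, Malat1 and Gm19757 were lost, and with read counts in place of UMIs no call was left. Emp1 and Malat1 also lost their calls without WT replicate 3. With wells thinned to 3000 UMIs and chosen again, Hlf had -1.18 (adjusted p = 0.598).

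Between Rev1 knockout and WT, 4 genes passed (0.0492%), 3 higher (0.0369%) and 1 lower (0.0123%). Tmsb10, an actin-binding thymosin, had 950, 940 and 910 CPM in Rev1 knockout replicates 1 to 3, against 822, 303 and 420 CPM in WT (log2 fold change 1.37, SE 0.232, adjusted p = 0.0154). Other wells had 626, 684 and 767 CPM of Tmsb10 in Rev1 knockout and 590, 203 and 406 CPM in WT. The Tmsb10 difference was thus not confined to lymphoid-primed wells. Mir5109 had 955, 5674 and 1387 CPM in Rev1 knockout and 2752, 264 and 384.2 CPM in WT, with overlapping plates (log2 fold change 3.45, adjusted p = 0.00118). Rev1 knockout replicate 1, which has no WT plate in its session, was below WT replicate 1 for Mir5109. In other wells of these plates, Mir5109 had 976, 4323 and 1487 CPM in Rev1 knockout and 2429, 286 and 1020 CPM in WT, so its plate differences were not confined to lymphoid-primed wells. Without the session term the calls on Tmsb10 (0.85, adjusted p = 0.325) and Mir5109 (1.21, adjusted p = 0.622) were lost, and those on Beta-s and Xist were kept. Beta-s, a haemoglobin beta chain gene, had 1.77, 0 and 0 CPM in Rev1 knockout and 29.0, 1971 and 60.0 CPM in WT (adjusted p = 0.0046), and 757 of the 775 UMIs of WT replicate 2 came from 1 well. Without WT replicate 2 no gene passed in this comparison, and the call on Tmsb10 was also lost without Rev1 knockout replicate 2 or 3. With read counts in place of UMIs no call was left, and 712 genes had an unadjusted p under 0.05.

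Xist, the RNA of the inactive X chromosome, had 458, 402 and 477 CPM in Rev1 knockout and 0 UMIs in WT, at least 47.0-fold higher (floor of 3 UMIs per WT plate, adjusted p = 0.0243). The Y-linked gene Ddx3y had 0 CPM on the 3 Rev1 knockout plates and 189, 155 and 152 CPM on the WT plates. Xist had 372 CPM on Pcna K164R replicate 2 and 0 on replicate 1, and 19.4 CPM on double mutant replicate 1, where Ddx3y had 87.5 CPM. The Xist and Ddx3y state of these plates and the Rev1 genotype cannot be told apart in this comparison. Hlf had a log2 fold change of -1.12 (adjusted p = 0.109), the nucleotide reductase subunit Rrm2 one of -1.68 (adjusted p = 0.0681), Rev1 one of -2.41 from 3, 1 and 2 UMIs against 2, 13 and 4 (adjusted p = 0.492), Pcna one of -0.45 (adjusted p = 0.655), Mpo one of 0.09 (adjusted p = 0.957) and Cdkn1a one of -0.46 (adjusted p = 0.905). Of 35 tested interferon-stimulated genes, 32 had values above 0 with a median of 0.85, and none was among the 4 called genes.

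Between Pcna K164R and WT, 1 gene passed (0.0123%), Mir5109, with 404 and 153 CPM in Pcna K164R and 2752, 264 and 384.2 CPM in WT (log2 fold change -3.31, adjusted p = 0.00721). That fold change rests on WT replicate 1, since WT replicates 2 and 3 lay between the Pcna K164R plates, and without the session term the call was lost (-2.04, adjusted p = 0.583). In other wells, Mir5109 had 330 and 307 CPM in Pcna K164R and 2429, 286 and 1020 CPM in WT. No gene passed as higher, while 486 genes had an unadjusted p under 0.05 in edgeR's test in either direction, and DESeq2 called 0 genes. The mitotic cyclin Ccnb1 had 422 and 383 CPM in Pcna K164R and 121, 191 and 204 CPM in WT, values that did not overlap, with a log2 fold change of 1.73 (adjusted p = 0.1204). Ube2c (1.48, adjusted p = 0.215) and Ccnb2 (1.44, adjusted p = 0.374) were next, and Lars2 (-2.65, adjusted p = 0.170) and Plcb2 (-2.16, adjusted p = 0.215) were the nearest lower genes. All 30 G2/M genes had values above 0, with a median of 0.53 against 0.03 over all genes, and none was called. Other wells had 221 and 222 CPM of Ccnb1 in Pcna K164R and 118, 145 and 126 CPM in WT. For Ube2c they had 475 and 347 CPM in Pcna K164R and 191, 217 and 221 CPM in WT. The differences in these 2 genes were thus not confined to lymphoid-primed wells. Hlf (-0.64, adjusted p = 0.827), Pcna (-0.15, adjusted p = 0.978), Rev1 (1.20, adjusted p = 0.947), Cdkn1a (0.49, adjusted p = 0.971) and Mpo (-0.09, adjusted p = 0.990) did not pass.

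**Figure D5:**
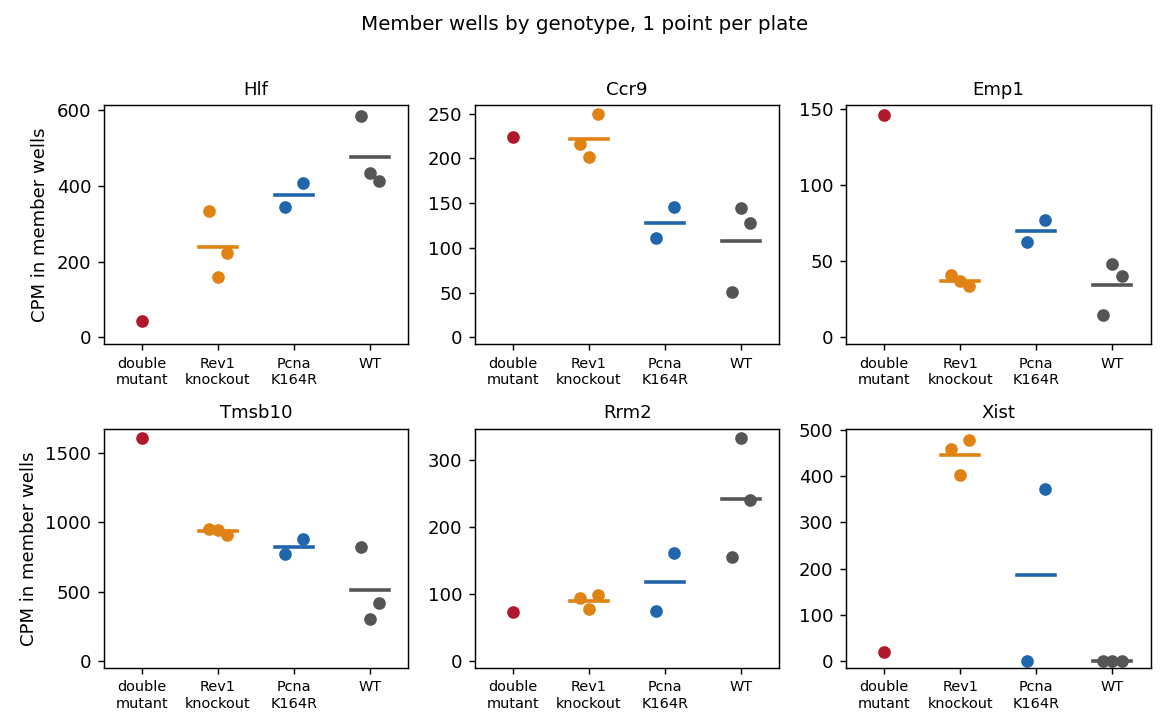
TMM-scaled CPM (y axes) in lymphoid-primed wells of genes named in the text for each plate, by genotype on the x axis with the double mutant at the left and WT at the right, and lines for the mean where a genotype has several plates. Hlf is 43.7 CPM on the only double mutant plate with enough wells, below the 412 to 585 CPM of the WT plates.

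Whether the double mutant differed from WT by another amount in lymphoid-primed wells than in other wells was tested as an interaction. Of 8690 genes, 8 passed (0.0921%), 7 higher (0.0806%) and 1 lower (0.0115%). Hlf was the lower one, with 44.1 CPM in lymphoid-primed wells and 236 CPM in other wells of double mutant replicate 1, against 589, 446 and 418 CPM in lymphoid-primed wells and 650, 521 and 567.96 CPM in other wells of WT (log2 difference of effects -2.16, SE 0.394, adjusted p = 0.0071). Itsn1, an endocytic scaffold, had 83.3 CPM in lymphoid-primed wells and 8.24 CPM in other wells of the double mutant, against 12.2, 2.61 and 16.2 CPM in lymphoid-primed wells and 39.2, 30.9 and 28.5 CPM in other wells of WT (5.12, SE 0.738, adjusted p = 1.95e-04). The double mutant value of Itsn1 comes from 17 UMIs in 6 of 8 wells.

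The other genes with a positive interaction were Fam101b (3.29, adjusted p = 0.0071), the adaptor Sla2 (3.04, adjusted p = 0.0146), E030030I06Rik (4.47, adjusted p = 0.0146), Sgsm1 (3.31, adjusted p = 0.0181), Hmga2 (0.96, adjusted p = 0.0213) and Slc35d3 (1.84, adjusted p = 0.0473). Hmga2, a chromatin protein of fetal stem cells, had 931 CPM in lymphoid-primed wells and 364 CPM in other wells of the double mutant, against 974, 837 and 747 CPM in lymphoid-primed wells and 714, 589 and 641 CPM in other wells of WT. Its level in lymphoid-primed wells was thus within the WT range, and the lower value was that of the other wells. The interactions of Ikzf2 and Ppm1g (-1.56) did not pass. Ikzf2 had 0 UMIs in double mutant lymphoid-primed wells, at least 13.5-fold lower than in WT ones. In other wells Ikzf2 was also lower, with 79.3 CPM in the double mutant, against 216, 319 and 242 CPM in WT. With wells thinned to 3000 UMIs and chosen again, the Hlf interaction was 0.06 and did not pass. Without WT replicate 1 the interaction calls numbered 2, and with read counts in place of UMIs 0.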

How the data were processed

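SORT-seq libraries of single LSK cells on 12 plates were made per the labels' protocols. The submitters' processing notes name BWA 0.7.15 and GRCm38 (mm10) without saying what each was for, and the counting tool is not given in the sources used here. The deposited tables hold whole-number counts of observed UMIs, made by the authors per gene and well with no normalization, and whole-number read counts. Another deposited table holds expected counts, in which the authors corrected UMI numbers for repeated random barcodes. The plates in the files have more wells than the series text states.

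The observed UMI counts were used for all main values. No 2 wells had identical profiles, and no doublet caller was run because single cells were sorted into wells, whose numbers are the same on every plate. Counts were summed per plate over lymphoid-primed wells and over other wells, on the 9 plates with at least 5 lymphoid-primed wells. Double mutant replicates 2, 3 and 4 therefore entered no gene test. Genes were tested in edgeR 4.0.16 under R 4.3.3 by the quasi-likelihood test, after TMM scaling and filterByExpr's default count filter, with Benjamini-Hochberg adjustment at 0.05. The comparison of lymphoid-primed with other wells had the plate as a block, and genotype comparisons had genotype and sort session. Log2 fold changes have a standard error (SE). Named genes were the 12 with the smallest p in each direction, the score genes and up to 4 genes per list, and in genotype comparisons the called genes, the nearest 3 per direction where fewer were called, and Rev1, Pcna, Cdkn1a, Mpo and Hlf. Dropped genes of the score were compared with exact sign-flip permutation tests (scipy 1.17.1), and shares have exact Clopper-Pearson intervals. The scripts were tested on simulated data. Alternatives included DESeq2 1.42.0, read counts, thinned wells, other score lines and leaving out each plate. The members and the 23 gene lists were chosen with earlier results of these data known. Some genes that this rule would name are not reported here.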

Additional observations from a re-analysis of the deposited data

Results flagged for a closer look

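Among 79 sets of plate values examined with Dixon's gap test, 11 held a plate standing apart, and chance alone gives this in about 5% of sets. Double mutant replicate 1 was such a plate for 7 of them. Its share of lymphoid-primed wells was 4.97%, with the next double mutant plate at 0.813%. Its left-out Flt3 difference was 2.05, with the next plate at 1.28, and its left-out Satb1 difference was 2.27, with the next at 1.54. In log2(CPM + 1) differences between lymphoid-primed and other wells, it had 2.19 for Lax1 (next 1.37), -3.97 for Mecom (next -2.27), 1.29 for Sesn1 (next 0.504) and -2.39 for Hlf (next -1.05). This plate held 8 lymphoid-primed wells, and the part of that small number was not tested.

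Of the others, Pcna K164R replicate 2 had 1.15 for Emb (next 0.857), Rev1 knockout replicate 2 had 0.048 for Xrcc6 (next 0.425), Rev1 knockout replicate 3 had 0.072 for Kif23 (next 0.572) and WT replicate 3 had -1.72 for Maml3 (next 0.285). In these 4 cases the plate lay on the far side of the values of the other 8 plates.

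The difference between the double mutant and WT was itself different in lymphoid-primed and in other wells, by the interaction test, for 8 genes. The log2 differences of effects were 5.12 for Itsn1, 3.29 for Fam101b, -2.16 for Hlf, 3.04 for Sla2, 4.47 for E030030I06Rik, 3.31 for Sgsm1, 0.96 for Hmga2 and 1.84 for Slc35d3. All of them rest on the 8 lymphoid-primed wells of double mutant replicate 1.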

How the results depend on the processing

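The comparison of lymphoid-primed with other wells called 1164 genes. It called 657 with read counts, 90 with wells thinned to 3000 UMIs and chosen again, 485 in session 1 alone, 276 in session 3 alone and, in alternatives chosen after seeing the data, 126 with the same wells thinned, 514 with wells chosen on thinned but tested on full counts and 209 on WT plates alone. Thinned wells have fewer UMIs and single sessions fewer plates by construction. Leaving out 1 plate gave 893 to 1161. The plate as a block paired the wells of each plate, and without that replicate block 472 genes were called. For the genotype comparisons, no paired analysis was possible because replicate numbers follow deposit order and plates carry 1 genotype each. With wells thinned and chosen again Lat was -0.026 and Psmb8 -0.017, and with depth-matched other wells Mpo was 0.12.

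The double mutant against WT gave 4 calls, and 1 with DESeq2, 33 without a filter on low counts, 0 with read counts, 9 at the top 8%, 10 at the top 16%, 2 without Flt3 in the score, 10 without the session term, 24 in session 1 alone and 2 to 31 without 1 plate (31 without Pcna K164R replicate 1, 21 without replicate 2 and 2 without WT replicate 3). Rev1 knockout against WT gave 4, and 1 with DESeq2, 66 without the filter, 0 with read counts, 11 at the top 8%, 14 at the top 16%, 22 thinned, 9 at 5000 UMIs per well, 8 without Flt3, 16 in session 3 alone and 0 to 61 without 1 plate (0 without WT replicate 2, 11 without WT replicate 3, 61 and 51 without Pcna K164R replicates 1 and 2). Pcna K164R against WT gave 1, and 0 with DESeq2, with read counts and at the top 16%, 14 without the filter, 6 at the top 8%, 7 thinned, 3 without the session term, 6 in session 1 alone and 1 to 20 without 1 plate (20 and 7 without Pcna K164R replicates 1 and 2). The interaction gave 8, and 2 with DESeq2, 18 without the filter, 0 with read counts, 3 at the top 8%, 14 at the top 16%, 0 thinned, where Hlf was 0.059, 19 without Flt3 and 2 to 13 without 1 plate (2 without WT replicate 1). The causes of these shifts were not tested.

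Mean shares of lymphoid-primed wells at the top 8% and the top 16% were 8.87 and 17.9% for Rev1 knockout, 7.62 and 17.5% for Pcna K164R and 11.1 and 21.2% for WT. Without 1 plate the shares were 0.271 to 1.93% for the double mutant, 10.9 to 14.4% for Rev1 knockout, 9.96 to 15.4% for Pcna K164R and 14.3 to 18.1% for WT. Left-out Flt3, Satb1, Il12a and Notch1 kept their direction and side of the threshold under each alternative run, and left-out Dntt had no UMI in thinned wells and gave no value there. Depth limits Rag1, Il7r and Ebf1, whose counts were too low to test, and the double mutant comparisons are limited by their 8 wells on 1 plate.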
